A study of Solanum lycopersicum with 24 samples.

Results

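The 8 genes described here encode tomato pathogenesis-related (PR) proteins and chitinases: *PR1b1*, *PR-1a1* and *P4* of the PR-1 family, *PR-5*, *PR-P2*, *TSI-1*, and the chitinases *CHI3* and *CHI9*. They were chosen by name, with earlier results of these arrays known, in which genes of this kind differed between *res* and WT in control roots. Each of the 8 had exactly 1 probe set with a single gene symbol, so 8 of the 67795 probe sets on the array, and 8 of the 21323 genes that carry a symbol, are followed. Because the choice drew on the control roots, every contrast that contains those arrays is given as a description, with no p-value printed. Counts past the call rule defined below, which uses an adjusted p, are also only descriptions there. Tests are given for salt-stressed roots, for leaves, and for the organs compared in salt.

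The *res* line is a tomato mutant in the cultivar Moneymaker, which served as the wild type (WT), and both genotypes were grown in hydroponics. Roots and leaflets of the first fully expanded leaf of 6-week-old plants were taken, per the labels, ahead of the salt (control) and after 5 days of it (salt stress), given in the same nutrient solution at a lower concentration on the first day and at 200 mM NaCl from then on. The 2 genotypes, 2 organs and 2 treatments made 8 groups of 3 arrays, 24 in all, and the RNA on each array was pooled from 3 plants. With control tissue taken ahead of the salt, 5 days of growth and the salt cannot be told apart. The mutant was represented by a single line, and differences between whole organs cannot separate more RNA per cell from more cells of one kind.

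PR proteins are small, mostly secreted or vacuolar proteins that plants accumulate when attacked by microbes, and many of their genes also respond to salicylate, ethylene, jasmonate, wounding or osmotic stress. PR-1 proteins are the classical markers of the salicylate response and can bind sterols, PR-5 proteins resemble thaumatin and osmotin, and PR-4 proteins such as PR-P2 carry a barwin domain. TSI-1 belongs to the PR-10 proteins, which lie inside the cell and resemble the birch allergen Bet v 1. Chitinases cut the chitin of fungal walls, CHI3 being an acidic extracellular and CHI9 a basic vacuolar form.

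Values are log2 intensities after RMA, the background correction, quantile normalisation and probe summary of these arrays, so a difference of 1 is a 2-fold change. The array medians lay between 1.84 and 2.17, and no detection call was used, so a level near 1 lies at the bottom of the scale and folds measured from it are not bounds. Levels were compared only between groups for the same probe set. A change was called when it was at least 2-fold and its p from limma's moderated test, adjusted over the 67795 probe sets by the Benjamini-Hochberg method, was under 0.05. Photosynthesis genes marked the leaf arrays, with 6 of 6 found higher in every leaf array than in every root array, whereas of 4 root markers found only *fer* separated the organs completely. Nothing in the labels states whether plants of different arrays shared a tank, so the p-values measure the spread between these arrays.

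2 arrays stood apart from their groups. In control WT leaves, replicate 1 was over 2-fold away from the mean of the other 2 arrays for 2494 probe sets, against 782 and 1054 for its partners. In salt-stressed WT roots, replicate 3 did so for 1399 probe sets, against 518 and 368, and the other 6 groups stayed between 58 and 239. Among the 8 genes the first array was lower for *CHI3*, *CHI9* and *PR-5*, by 4.47, 4.55 and 1.19 log2 units. The second was within 2-fold of its partners for all 8 genes, the widest gap being 0.71 below them for *CHI3*.

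**Figure D1:**
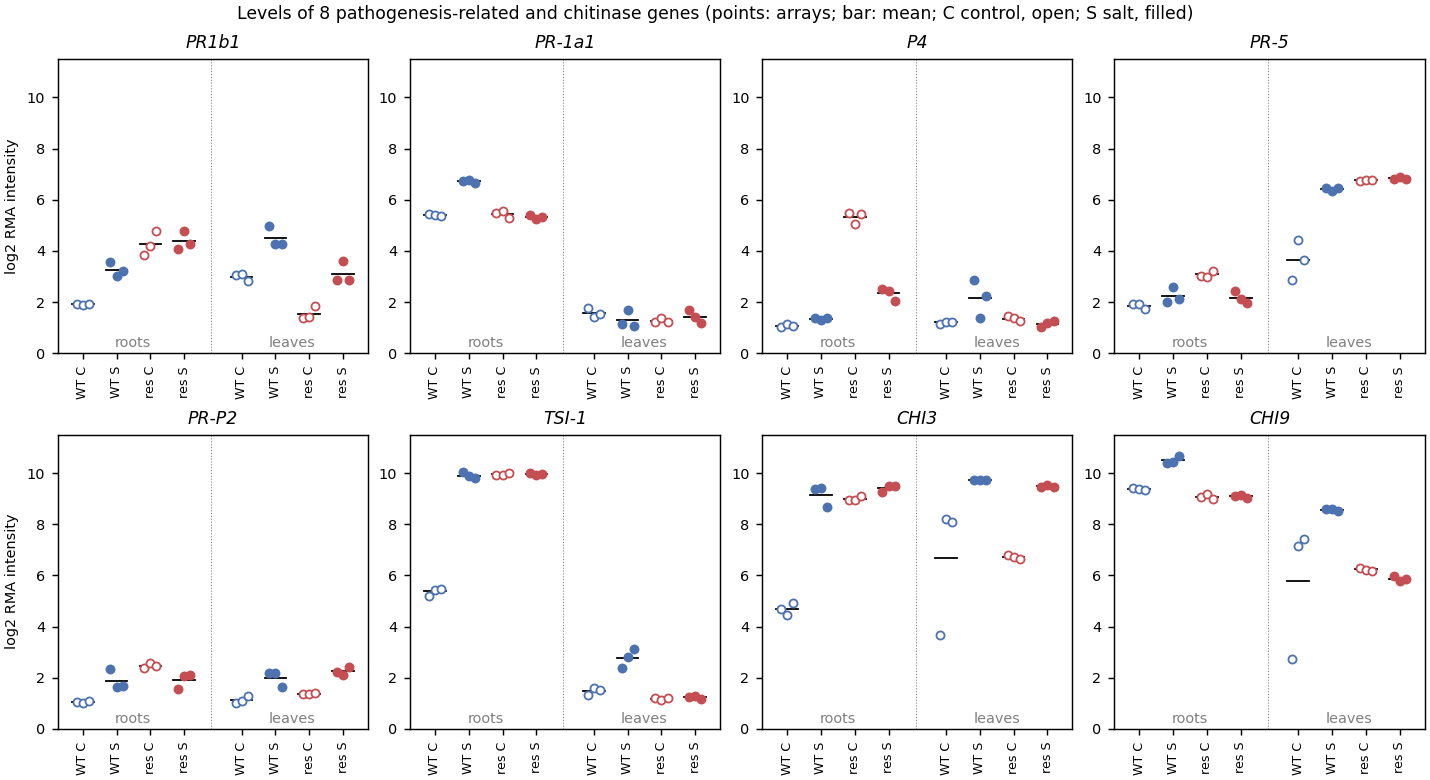
Level of each of the 8 genes (log2 RMA intensity, vertical axis) on every array of the 8 groups, roots left and leaves right in each panel, with open points for control and filled points for salt stress, WT in blue and *res* in red, and a bar at the group mean. *TSI-1* and *CHI3* are low only in control WT roots among the root groups, and *CHI3* and *CHI9* show 1 low array in control WT leaves.

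In control roots 6 of the 8 genes were at least 2-fold higher in *res* than in WT and passed the call rule, and none was lower. This is the contrast that bears on their choice, so nothing is read from the count, and 5.43% of all probe sets were called there, 2.96% as higher. The median difference over the 8 genes was 1.90, beside -0.01 over all probe sets. The size of the difference ran from 1.22 ± 0.16 (SE, n = 3 arrays a group) for *PR-5* to 4.58 ± 0.10 for *TSI-1*. *PR-1a1* and *CHI9* stood outside this pattern, with differences of 0.03 ± 0.09 and -0.31 ± 0.09.

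*TSI-1* gave the widest difference. Its levels in control WT roots were 5.20, 5.44 and 5.47. In control *res* roots they were 9.94, 9.92 and 10.00. After salt they were 10.03, 9.87 and 9.80 in WT and 9.99, 9.94 and 9.98 in *res*. Only the control WT roots were low, and the other 3 root groups overlapped at the top of the array's range, above 99% of all probe sets. The difference in control roots was 23.9-fold, and WT roots in salt stood 23.1-fold above WT roots in control, whereas in *res* roots salt and control differed by 0.02 ± 0.10.

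*CHI3* had the same order in roots. Control WT roots measured 4.68, 4.45 and 4.90, control *res* roots 8.93, 8.95 and 9.11, and salt-stressed *res* roots 9.25, 9.48 and 9.48. Salt-stressed WT roots measured 9.37, 9.40 and 8.67, with the lowest of these on the array that stood apart. The control roots of the genotypes differed 20.0-fold with no overlap. Salt and control differed by 4.47 ± 0.18 in WT and by 0.41 ± 0.18 in *res*.

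*PR1b1* followed with smaller steps. Control WT roots lay at 1.93, 1.87 and 1.92, and control *res* roots at 3.85, 4.19 and 4.77, a difference of 5.15-fold. With salt, WT roots reached 3.58, 3.02 and 3.20, and *res* roots stayed at 4.07, 4.77 and 4.27. Every *res* root array, in either treatment, was above every WT root array.

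*P4*, *PR-5* and *PR-P2* formed a second pattern, with the highest root mean in control *res* roots and a lower one there after salt. *P4* was at the floor of the scale in WT roots, with 1.01, 1.13 and 1.08 in control and 1.38, 1.31 and 1.36 in salt. In *res* roots it was 5.50, 5.06 and 5.43 in control and 2.51, 2.45 and 2.05 in salt. The 2 *res* groups did not overlap, and control was 7.98-fold above salt. *P4* was the single gene of the 8 that passed the call rule for salt against control in *res* roots, where 3.11% of all probe sets were called, 1.53% as lower. *PR-5* was 3.02, 2.99 and 3.23 in control *res* roots against 1.92, 1.93 and 1.73 in WT, and in salt the genotypes overlapped. Its salt difference in *res* roots was -0.91 ± 0.16, and -1.05, past the rule, without replicate 1 of salt-stressed *res* roots. *PR-P2* was 2.38, 2.57 and 2.47 in control *res* roots against 1.03, 1.01 and 1.07 in WT, and in salt they overlapped as well. No array of *PR-P2* in either organ exceeded 2.57, close to the array medians of 1.84 to 2.17. For *P4*, *PR-5* and *PR-P2* every array of WT roots was higher in salt than in control and every array of *res* roots lower. The WT differences were 0.28 ± 0.14, 0.39 ± 0.16 and 0.84 ± 0.18, none past the call rule.

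*PR-1a1* and *CHI9* followed the remaining pattern, with a salt difference in WT roots alone. *PR-1a1* measured 5.45, 5.41 and 5.38 in control WT roots and 6.74, 6.76 and 6.67 in salt-stressed WT roots. In *res* roots it measured 5.47, 5.56 and 5.29 in control and 5.42, 5.23 and 5.31 in salt, overlapping each other and the control WT roots. *CHI9* was high in all root arrays, with 9.41, 9.39 and 9.34 in control WT roots and 10.39, 10.45 and 10.65 after salt. Its *res* root arrays lay between 8.97 and 9.17 in both treatments, below every WT root array.

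For salt against control in WT roots 5 of the 8 genes were called, all higher (*TSI-1*, *CHI3*, *PR1b1*, *PR-1a1* and *CHI9*), beside 2.72% of all probe sets called and 1.5% called as higher. The salt difference in *res* minus that in WT was below 0 and past the call rule for all 8 genes, from -1.10 ± 0.13 for *CHI9* to -4.51 ± 0.14 for *TSI-1*, beside 3.69% of all probe sets called and 1.89% called as lower. Both contrasts contain the control roots, so neither count serves as a test for any of the 8 genes. For 6 of them the difference between the responses contains the higher level in control *res* roots. For *PR-1a1* and *CHI9* the genotypes were within 1.24-fold in control roots, and their difference lay in the salt-stressed arrays. The call for *PR1b1* (-1.26 ± 0.32) was lost without any one of 8 of the 12 root arrays. With all 24 arrays in 1 fit *CHI9* lost both its call for salt in WT roots (1.12 ± 0.67) and this one (-1.10 ± 0.95).

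**Figure D2:**
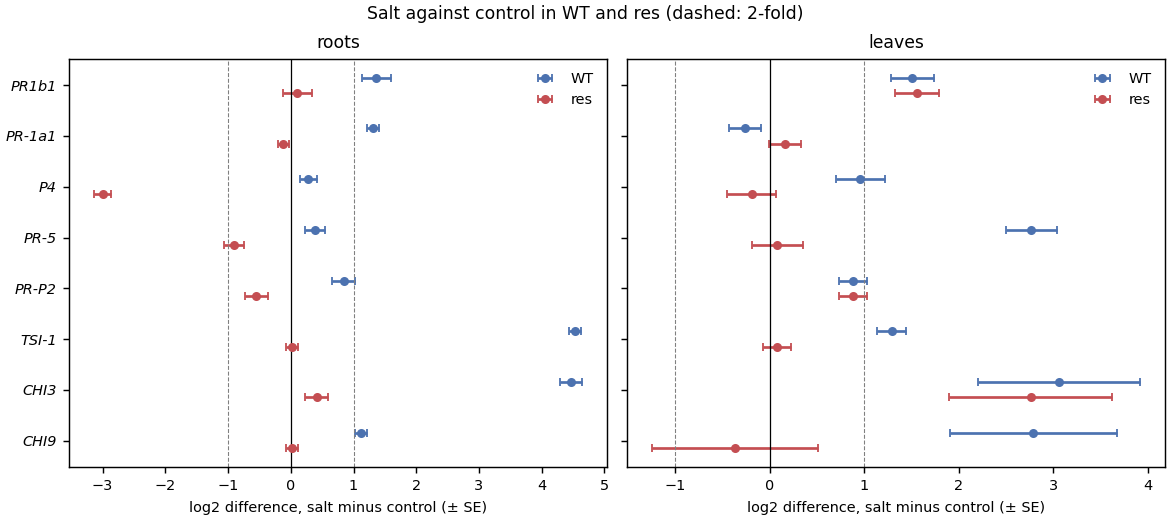
Difference between salt stress and control (log2, salt minus control, horizontal axis, ± SE) of each gene in roots (left) and leaves (right), with WT in blue and *res* in red and dashed lines at 2-fold. In roots the WT point lies to the right of the *res* point for all 8 genes, and in leaves *PR1b1*, *PR-P2* and *CHI3* have WT and *res* points within 0.30 of each other. For *CHI3* this rests on the low control WT leaf array, without which the response was larger in *res* by 1.19 ± 0.13.

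The contrast of *res* and WT in salt-stressed roots holds no control root array. It shares the fitted variance with the control roots, and the genes were chosen with earlier results of these data known. Here 3 of the 8 genes were called, 1 higher and 2 lower, beside 2.17% of all probe sets. The lower ones were *PR-1a1*, 2.65-fold lower in *res* (log2 difference -1.40 ± 0.09, limma adjusted p = 9.31e-07), and the basic chitinase gene *CHI9*, also 2.65-fold lower (-1.41 ± 0.09, limma adjusted p = 1.11e-06). The higher one was *PR1b1*, 2.15-fold higher in *res* (1.10 ± 0.23, limma adjusted p = 0.00802). None of these groups overlapped. *PR1b1* fell under 2-fold with quantile normalisation repeated over the root arrays alone (0.94), without replicate 2 of salt-stressed WT roots (0.98) and without replicate 2 of salt-stressed *res* roots (0.90). It also lost the call with no moderation of the variance (1.10, adjusted p = 0.0541 from the linear model across all probe sets). *CHI9* kept its difference in every fit, but its limma adjusted p was 0.285 when leaf arrays, with the low control WT array, shared the variance.

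*P4* remained 1.98-fold higher in salt-stressed *res* roots, with no overlap (0.98 ± 0.14, limma adjusted p = 0.000463), just under the 2-fold rule. It passed 2-fold with quantile normalisation repeated over the root arrays (1.02) and without replicate 3 of salt-stressed *res* roots (1.13), and reached it without replicate 1 of salt-stressed WT roots. The remaining 4 genes overlapped between the genotypes. Their differences were 0.07 ± 0.10 for *TSI-1*, 0.26 ± 0.18 for *CHI3*, 0.04 ± 0.18 for *PR-P2* and -0.08 ± 0.16 for *PR-5*, none of them past the test. The median over the 8 genes was 0.06, beside -0.01 over all probe sets.

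**Figure D3:**
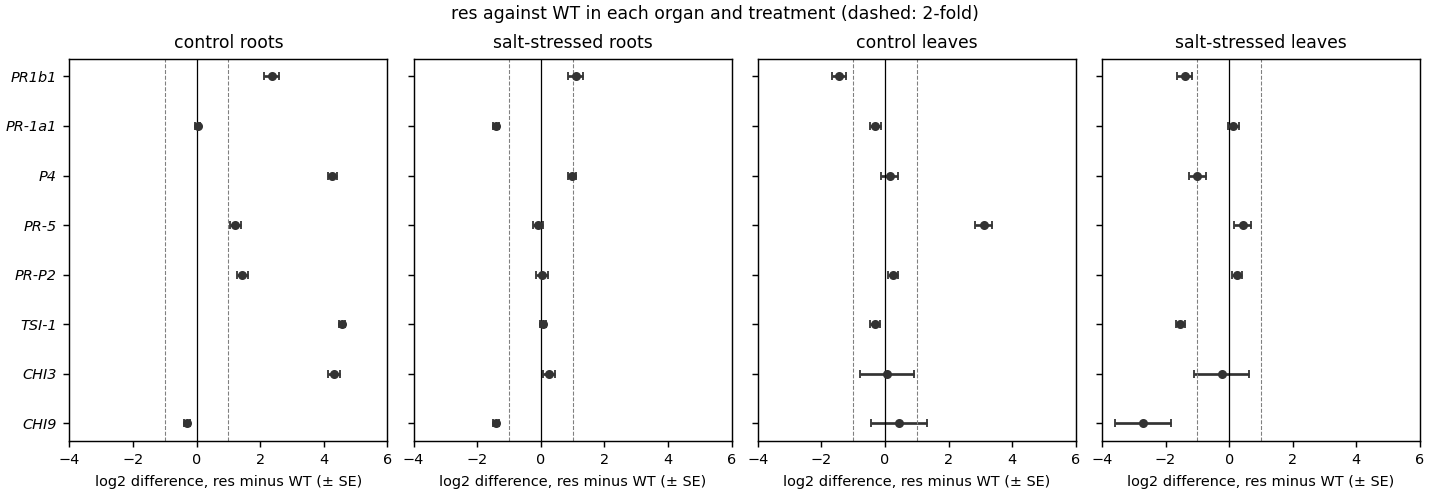
Difference between *res* and WT (log2, *res* minus WT, horizontal axis, ± SE) of each of the 8 genes in control roots, salt-stressed roots, control leaves and salt-stressed leaves, with dashed lines at 2-fold. *PR1b1* lies right of 0 in both root panels and left of 0 in both leaf panels, and *PR-5* has its widest difference in control leaves.

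In leaves the genes behaved differently from one another. In control leaves 2 of the 8 were called between the genotypes, *PR-5* higher and *PR1b1* lower in *res*, beside 3.92% of all probe sets. The median of all probe sets was itself -0.12 in control leaves and -0.11 in salt-stressed leaves, and 0 in both after quantile normalisation within the organ, so the leaf differences between genotypes are to be read against that shift.

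*PR-5*, the thaumatin-like protein gene, had its highest levels in leaves. Control WT leaves measured 2.86, 4.44 and 3.66. Control *res* leaves measured 6.74, 6.78 and 6.77, and salt-stressed *res* leaves 6.81, 6.89 and 6.82. Salt-stressed WT leaves reached 6.45, 6.35 and 6.47. The control WT leaves were low and scattered, and the other 3 leaf groups lay within a narrow band. *PR-5* was thus 8.63-fold higher in control *res* leaves (3.11 ± 0.27, limma adjusted p = 1.29e-05) and rose 6.81-fold with salt in WT leaves (2.77 ± 0.27, limma adjusted p = 1.06e-05). In *res* leaves the salt difference was 0.08 ± 0.27 (limma adjusted p = 0.935). The salt responses of the genotypes differed by -2.69 ± 0.39 (limma adjusted p = 0.000903). Without the control WT leaf array that stood apart, the control difference was 2.71 ± 0.17 and the difference between responses -2.29 ± 0.23, both still called.

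*PR1b1* was lower in *res* leaves and rose with salt in both genotypes. WT leaves measured 3.06, 3.10 and 2.84 in control and 4.97, 4.27 and 4.29 in salt. The leaves of *res* measured 1.38, 1.42 and 1.84 in control and 2.86, 3.59 and 2.88 in salt. The genotypes did not overlap within either treatment. *PR1b1* was 2.74-fold lower in control *res* leaves (limma adjusted p = 0.00089) and 2.64-fold lower in salt-stressed *res* leaves (limma adjusted p = 0.000981). Its salt rise was 2.85-fold in WT and 2.96-fold in *res* (limma adjusted p = 0.000344 and 0.000585), and the responses differed by 0.05 ± 0.32.

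In salt-stressed leaves 4 of the 8 genes were called, all lower in *res* (*PR1b1*, *P4*, *TSI-1* and *CHI9*), beside 4.37% of all probe sets called and 3.21% called as lower. *TSI-1* measured 2.39, 2.82 and 3.11 in salt-stressed WT leaves and 1.25, 1.30 and 1.16 in salt-stressed *res* leaves. In control leaves it measured 1.34, 1.60 and 1.52 in WT and 1.19, 1.12 and 1.19 in *res*. Only the salt-stressed WT leaves rose above the floor of the scale. The rise in WT was 2.44-fold (1.29 ± 0.15, limma adjusted p = 4.85e-05), the genotypes differed 2.90-fold in salt (-1.53 ± 0.15, limma adjusted p = 2.23e-05), and the responses differed by -1.21 ± 0.21 (limma adjusted p = 0.00395). In salt-stressed roots the mean level of *TSI-1* was 9.90 in WT and 9.97 in *res*, far above these leaf levels, and with *res* leaves at the bottom of the scale no fold is given between the organs.

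*P4* in salt-stressed WT leaves was uneven, at 2.86, 1.39 and 2.25, against 1.04, 1.20 and 1.25 in *res*. The difference was 2.00-fold, on the edge of the rule (SE 0.26 on the log2 scale, limma adjusted p = 0.0187). It was -0.65 without replicate 1 of salt-stressed WT leaves, and the call was also lost without replicate 3 of that group, without replicate 1 of salt-stressed *res* leaves, with no moderation of the variance and with normalisation within the organ (-0.91). Salt against control in WT leaves gave 0.96 ± 0.26 (limma adjusted p = 0.0204), and 1.35 without replicate 2 of salt-stressed WT leaves, which was then called. In control leaves *P4* lay between 1.15 and 1.45 on all 6 arrays.

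The chitinase genes depended on the control WT leaf array that stood apart. *CHI3* measured 3.67, 8.21 and 8.09 in control WT leaves and 6.80, 6.70 and 6.65 in control *res* leaves, so 1 WT array lay below and 2 above all *res* arrays. Over all arrays the difference was 0.06 ± 0.86. Without that array it was -1.43 ± 0.10, lower in *res* (limma adjusted p = 5.86e-07). After salt *CHI3* measured 9.71, 9.72 and 9.72 in WT and 9.45, 9.54 and 9.44 in *res*. Its salt difference was 3.06 ± 0.86 in WT (limma adjusted p = 0.0231) and 2.76 ± 0.86 in *res* (limma adjusted p = 0.0647), and every salt array was above every control array. Without that array the differences were 1.57 ± 0.10 in WT and 2.76 ± 0.09 in *res* (limma adjusted p = 1.43e-07 and 3.26e-09), and the response was larger in *res* by 1.19 ± 0.13 (limma adjusted p = 4.36e-05), where all arrays gave -0.30 ± 1.22.

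*CHI9* measured 2.74, 7.15 and 7.43 in control WT leaves and 6.28, 6.22 and 6.18 in control *res* leaves. After salt it measured 8.58, 8.60 and 8.51 in WT and 5.97, 5.76 and 5.84 in *res*. The salt-stressed groups were 6.52-fold apart with no overlap, and the SE of that difference came from the shared leaf variance (-2.70 ± 0.88, limma adjusted p = 0.0495). Fitted on those 6 arrays alone the SE was 0.10 (limma adjusted p = 7.82e-07), and without the control WT array it was also 0.10 (limma adjusted p = 4.24e-09). With any one of those 6 arrays left out, and the control WT array kept, the adjusted p was between 0.105 and 0.118. The rise with salt in WT leaves was 2.79 ± 0.88 over all arrays (limma adjusted p = 0.0402) and 1.27 ± 0.11 without that array (limma adjusted p = 3.24e-06). The calls of *CHI3* and *CHI9* for salt in WT leaves were both lost without any one of the salt-stressed WT leaf arrays. In *res* leaves the salt difference was -0.37 ± 0.88, with no overlap between the treatments. Leaving out the low control WT array gave -0.37 ± 0.10 (limma adjusted p = 0.0251), under 2-fold and so not called. Without that array control *res* leaves were lower than WT by 1.06 ± 0.11 on the log2 scale (log2 difference -1.06, limma adjusted p = 2.68e-05), where all arrays gave 0.45 ± 0.88, and the responses differed by -1.64 ± 0.15 (limma adjusted p = 1.01e-05).

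*PR-P2* had the same salt difference in the leaves of both genotypes. Control leaves measured 1.01, 1.08 and 1.27 in WT and 1.36, 1.35 and 1.40 in *res*, and salt-stressed leaves 2.18, 2.18 and 1.64 in WT and 2.22, 2.09 and 2.43 in *res*. The salt difference was 1.84-fold in each (0.88 ± 0.15, limma adjusted p = 0.000817 in WT and 0.00174 in *res*), below the 2-fold rule. Without replicate 3 of salt-stressed WT leaves it was 1.06 in WT and was called. *PR-1a1* stayed between 1.08 and 1.75 on all 12 leaf arrays, and no contrast within leaves was called for it.

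Over the salt response, 5 of the 8 genes were called in WT leaves, all higher (*PR1b1*, *PR-5*, *TSI-1*, *CHI3* and *CHI9*), beside 6.98% of all probe sets called and 4.56% called as higher, with a median difference of 1.40 beside -0.07. In *res* leaves *PR1b1* alone was called, beside 3.4% called and 1.84% called as higher, with a median of 0.12 beside -0.04. These counts depend on the leaf variance, which includes the low control WT array. With only the groups compared, *CHI3* was called in *res* leaves (2.76 ± 0.09, limma adjusted p = 9.1e-07). In that setting *CHI3* and *CHI9* lost their calls in WT leaves (limma adjusted p = 0.116 and 0.157). The difference between the responses was called for *PR-5* and *TSI-1*, both lower in *res*, beside 4.12% of all probe sets called and 2.46% called as lower.

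Levels differed between the organs for most of the 8 genes. In salt, leaf minus root was called for 5 genes in WT, 2 higher and 3 lower, beside 12.5% of all probe sets, and for 6 in *res*, 1 higher and 5 lower, beside 15.9%. *PR-1a1* was lower in leaves than in roots of both genotypes in salt (limma adjusted p = 1.5e-18 in WT and 5.04e-16 in *res*), with leaf means of 1.30 and 1.43 at the bottom of the scale, so no fold is given. *PR-5* was the other way round, 18.0-fold higher in leaves of salt-stressed WT and 25.6-fold higher in *res* (limma adjusted p = 1.63e-12 and 2.04e-13). *CHI9* was 3.83-fold lower in leaves of salt-stressed WT (limma adjusted p = 0.0351), a call lost without any one of those 6 arrays. Those fits share the variance of all arrays, among them the low control WT leaf array. With only the groups compared the difference was -1.94 ± 0.11 (limma adjusted p = 3e-06). *P4* gained a call in the same contrast without replicate 2 of salt-stressed WT leaves (1.20). *PR1b1* changed sides, 2.37-fold higher in leaves than roots in salt-stressed WT and 2.40-fold lower in *res* (limma adjusted p = 0.000278 and 0.000184). In control, where the root arrays enter as a description, 6 of the 8 passed the rule in WT (3 higher and 3 lower in leaves, beside 15.2%) and all 8 in *res* (1 higher and 7 lower, beside 17.7%). The WT call of *CHI3* (1.98 ± 0.67) was lost without replicate 2 or 3 of control WT leaves or replicate 1 or 2 of control WT roots. Without the low replicate 1 of control WT leaves its difference was 3.47 ± 0.16. That of *CHI9* was -3.60 ± 0.67 over all arrays and -2.09 ± 0.10 without it. With only the groups compared, *CHI3* and *CHI9* both lost this call.

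The effect of *res* in salt differed between leaves and roots for 4 of the 8 genes, beside 6.99% of all probe sets. *CHI9* (-1.30 ± 0.95) was not called in the fit of all 24 arrays, which holds the low control WT leaf array, and was called with only the 4 groups compared (-1.30 ± 0.14, limma adjusted p = 3.76e-05). For *PR1b1* it was lower in leaves by 2.50 ± 0.34 (log2 difference -2.50, limma adjusted p = 1.83e-05), being positive in roots and negative in leaves. *P4* had the same signs (-1.99 ± 0.31, limma adjusted p = 9.7e-05). *TSI-1* was at -1.53 ± 0.15 in leaves and 0.07 ± 0.10 in roots (difference -1.61 ± 0.18, limma adjusted p = 1.62e-06), and *PR-1a1* at 0.13 ± 0.17 in leaves and -1.40 ± 0.09 in roots (difference 1.53 ± 0.20, limma adjusted p = 1.01e-05).

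The order of the 8 group means also set the genes apart. *PR1b1* was highest in salt-stressed WT leaves (4.51), whose arrays overlapped those of salt-stressed *res* roots, and lowest in control *res* leaves (1.55), which did not overlap the next group. *TSI-1* had its 3 highest groups overlapping in roots, then control WT roots, then all leaf groups. *CHI3* was highest in salt-stressed leaves of both genotypes (9.72 in WT and 9.48 in *res*), the *res* arrays overlapping those of salt-stressed *res* roots. Over the 4 root means, which share normalisation and include the control roots, *TSI-1* and *CHI3* had a Pearson r of 1.00, *PR-1a1* and *CHI9* 0.98, and *P4* and *PR-5* 0.95. These pairs were grouped above from the same 4 means, so a high r was built in. Pairs across the groups ran from -0.54 (*P4* and *CHI9*) to 0.90 (*PR1b1* and *PR-P2*), and *P4* with *PR-P2*, of 1 group, gave 0.83. Leaf means were not set against each other in this way, because *PR-1a1* lay at the bottom of the scale in all leaf groups and the control WT means of *CHI3* and *CHI9* rest on the low array.

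Among 705 other genes with a name and a span of at least 1 log2 unit, those whose 8 group means were most like *TSI-1* were *AS1* (r = 0.992), *EZ2* (0.976) and *ARF5* (0.975). All leaf means of *TSI-1* lay below its root means, so these r also follow the organs. In control WT roots *AS1* was 5.69, against 8.31 to 9.57 in the other root groups. The steps were smaller for *EZ2* (5.08 against 5.42 to 5.66) and *ARF5* (6.0 against 6.5 to 6.95). Those most like *CHI3* were *JA2*, a NAC transcription factor gene (0.956), *cat1*, a catalase gene (0.945), and *PR-P2* itself (0.881). For *CHI3* the mean of control WT leaves rests on the low array, and the search was not repeated without it. The 8 means also include the control roots, so each r here is a description. *JA2* was 3.61 in control WT roots and between 7.26 and 7.51 in the other root groups, so it shared the low control WT roots of *CHI3*.

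The genes beside the 8 in the RefSeq gene order were then read, since PR genes often lie in tandem. This was decided after the members' values were known, and without using the neighbours' values. Of 15 distinct immediate neighbours, 12 had a probe set. *PR1b1* and *P4* were separated by 1 annotated pseudogene. The array's probe sequences were not used here, and whether related transcripts bound each other's probes was not tested, either among neighbours or within the PR-1 family.

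Both neighbours of *TSI-1* were lowest in control WT roots among the root groups, as *TSI-1* was. *LOC101246381* measured 5.49, 5.22 and 5.20 in control WT roots and between 7.72 and 8.50 on all other root arrays. *LOC101246666* measured 3.78, 3.92 and 4.10 in control WT roots and between 7.80 and 9.22 on the others. Unlike *TSI-1*, their *res* root arrays did not overlap between treatments, salt minus control being 0.28 ± 0.11 for *LOC101246381* and -0.93 ± 0.28 for *LOC101246666*. In salt-stressed leaves both were lower in *res*, by 3.25-fold and 8.18-fold (limma adjusted p = 5.64e-06 and 2.65e-07). *LOC101246666* rose with salt 6.59-fold in WT leaves (limma adjusted p = 3.05e-07) and differed by -0.10 ± 0.18 in *res* leaves. *LOC101246381* rose in both, 11.4-fold in WT and 4.34-fold in *res* (limma adjusted p = 4.14e-09 and 1.65e-06).

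The neighbours of *CHI9* also shared its lower level in salt-stressed *res* leaves. *LOC101267358* was 8.61-fold lower there (-3.11 ± 0.57, limma adjusted p = 0.00222) and *LOC101266770* 2.18-fold lower (-1.12 ± 0.16, limma adjusted p = 0.000355). In control WT leaves *LOC101267358* measured 1.41, 4.24 and 4.40, low on the same array as *CHI9*. In salt-stressed roots *LOC101266770* was 3.29-fold lower in *res* (limma adjusted p = 1.11e-06), and unlike *CHI9* it had been higher in control *res* roots (2.38 ± 0.11).

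On one side of *CHI3*, *LOC101252453* measured 3.22, 3.00 and 3.41 in control WT roots and between 4.68 and 6.39 on the other root arrays. On the other side lay *CHI17*, a further acidic chitinase gene and the single other chitinase gene found by symbol. *CHI17* measured 3.20, 3.11 and 2.83 in salt-stressed *res* roots and between 1.14 and 1.99 on the other root arrays. It was called higher in *res* in salt-stressed roots (2.15-fold, limma adjusted p = 0.000702) and lower in *res* in salt-stressed leaves (2.14-fold, limma adjusted p = 0.00511). Its neighbour *CHI3* was called in neither.

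Across the 12 neighbours, 6 were lower and none higher in salt-stressed *res* leaves, beside 3.21% of all probe sets called as lower, and 2 were higher and 1 lower in salt-stressed *res* roots, beside 2.17%. Several of the 12 lie side by side with the same member, so they are not independent. Not every neighbour moved with its member. *LOC101264452* beside *PR-5* was lower in *res* in control leaves (-2.00 ± 0.19, limma adjusted p = 1.96e-05) and in salt-stressed leaves (-2.07 ± 0.19, limma adjusted p = 9.74e-06), whereas *PR-5* was higher by 3.11 in control *res* leaves. Neither neighbour of *PR-P2* passed the rule in any contrast within roots or within leaves.

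**Figure D4:**
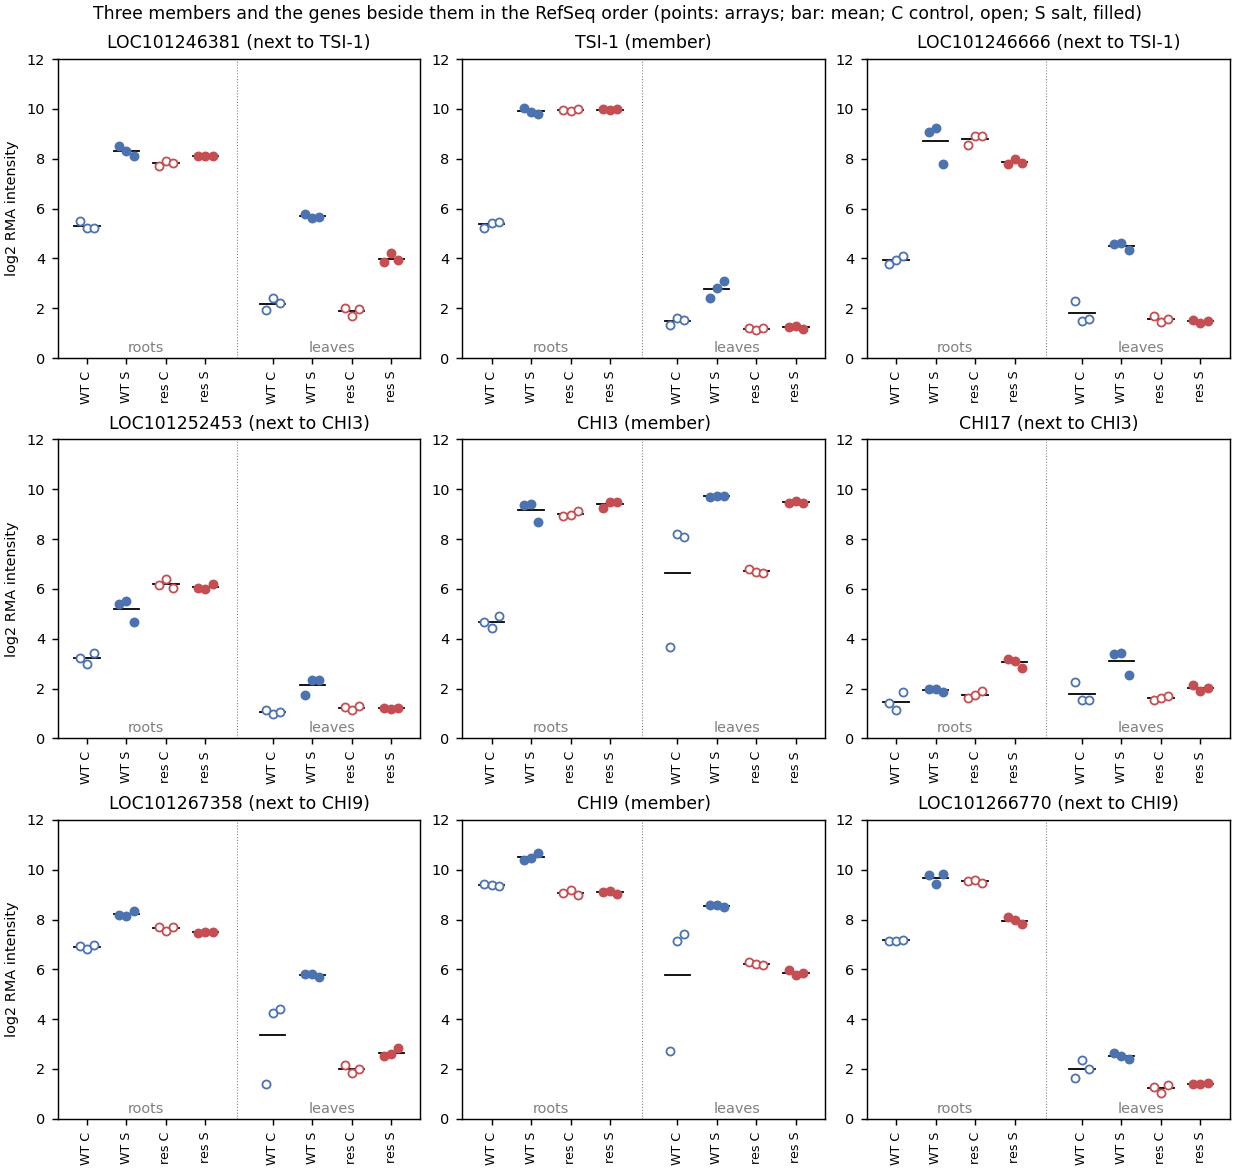
Levels (log2 RMA intensity, vertical axis) of *TSI-1*, *CHI3* and *CHI9* (middle column) and of the genes beside them in the RefSeq order (left and right columns) on every array, with open points for control, filled points for salt stress, WT in blue, *res* in red and a bar at the group mean. Control WT roots are the lowest root group for both neighbours of *TSI-1*, and *LOC101267358* is low on 1 control WT leaf array, as *CHI9* is.

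Of the genes that regulate PR genes, 14 were found by symbol. They include *NPR1* and its relative *NML1* (salicylate signalling), *SAMT*, whose enzyme makes methyl salicylate, *Coi1* and *MYC2* (jasmonate), and *EIL* and *ERF* genes (ethylene). In salt-stressed roots 2 of the 14 were called, both higher in *res*, beside 2.17% of all probe sets. *SAMT* measured 3.99, 3.93 and 3.87 in salt-stressed *res* roots and 0.93, 1.80 and 1.58 in WT, 5.65-fold apart (limma adjusted p = 1.43e-06). *ERF2* measured 7.46, 7.50 and 7.37 against 4.98, 5.34 and 5.96, 4.05-fold apart (limma adjusted p = 1.37e-05). Both also differed in control roots, by 2.83 ± 0.17 and 3.18 ± 0.18, and were the 2 of 14 past the rule there, beside 5.43% of all probe sets. *NPR1* was not called in any comparison of genotypes.

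In control leaves 4 of the 14 were called, 1 higher and 3 lower in *res*, beside 3.92% of all probe sets. *EIL3*, an ethylene transcription factor gene, was 2.15-fold higher (limma adjusted p = 2.63e-05). *ERF5* was 5.89-fold lower, *WRKY3* 3.03-fold lower and *NML1* 2.64-fold lower (limma adjusted p = 0.000362, 0.0247 and 3.84e-05). *ERF5* and *WRKY3* were low on the control WT array that stood apart, at 4.94 and 5.53 against at least 6.55 and 7.71 on its partners, and without it their differences were -3.12 ± 0.16 and -2.35 ± 0.11. In salt-stressed leaves limma called none of the 14 between the genotypes, beside 4.37% of all probe sets, and 4 of them (*EIL2*, *EIL3*, *ERF4* and *MYC2*) had an adjusted p under 0.05 with a difference under 2-fold.

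With salt, 3 of the 14 were called higher in WT leaves and 4 in *res* leaves. Beside them, 4.56% and 1.84% of all probe sets were called as higher, and 6.98% and 3.4% in either direction. *EIL3* and *EIL4* rose in both, *EIL3* 3.49-fold in WT and 2.40-fold in *res* (limma adjusted p = 1.1e-07 and 8.96e-06). *EIL2* passed the rule in WT leaves and not in *res* leaves, and its difference between responses was not called (-0.60 ± 0.21, limma adjusted p = 0.125). *ERF5* rose 5.61-fold and *NML1* 2.49-fold in *res* leaves (limma adjusted p = 0.000466 and 5.75e-05). Their responses differed from those in WT by 3.43 ± 0.50 and 1.32 ± 0.20 (limma adjusted p = 0.000937 and 0.00129). Without the control WT array that stood apart, *ERF5* and *WRKY3* were also called lower with salt in WT leaves (-1.50 ± 0.16 and -1.22 ± 0.11, limma adjusted p = 1.4e-05 and 5.95e-06), and the difference between responses was called for *WRKY3* (2.08 ± 0.15, limma adjusted p = 1.86e-06).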

How the data were processed

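Biotinylated cDNA from total RNA of 24 samples was hybridised to 1-colour Affymetrix tomato gene arrays. The deposited table holds log2 values per probe set, which the authors made with RMA after quality control in Affymetrix software, and which were used without further normalisation. The authors used Partek for annotation and statistics, and no version is stated. Probe sets were named through the platform's gene table and the RefSeq annotation (23194 with 1 symbol, 170 with several, 44431 with none). Python 3.11.15 summarised levels, and limma 3.58.1 in R 4.3.3 fitted 1 coefficient per group over the 12 arrays of an organ, or all 24 for organ contrasts, with lmFit, contrasts.fit and eBayes, and Benjamini-Hochberg adjustment. The fit was tested on simulated data. The number of arrays, 3 a group, limits the precision.

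The members and lists were chosen with earlier results of these data known. All 8 genes were named, with at most 4 genes per list and contrast (those with the largest absolute difference among called ones) and the 3 named genes most like *TSI-1* and *CHI3*. Lists by gene description, and a comparison of sequences, could not be run for want of those tables here. Alternatives were another pooling of variance, no moderation, trend with robust moderation, normalisation within organs, a filter on low values, 1 probe set per gene, a replicate block and leaving out each array.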

Additional observations from a re-analysis of the deposited data

Results flagged for a closer look

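For 2 genes the salt response in leaves differed between the genotypes by limma's test of the interaction: *PR-5* (-2.69 ± 0.39, adjusted p = 0.000903) and *TSI-1* (-1.21 ± 0.21, adjusted p = 0.00395). For 4 genes the difference between *res* and WT in salt itself differed between leaves and roots: *PR1b1* (-2.50 ± 0.34, adjusted p = 1.83e-05), *PR-1a1* (1.53 ± 0.20, adjusted p = 1.01e-05), *P4* (-1.99 ± 0.31, adjusted p = 9.7e-05) and *TSI-1* (-1.61 ± 0.18, adjusted p = 1.62e-06). In roots, every WT array of *P4*, *PR-5* and *PR-P2* was higher in salt than in control while every *res* array was lower. The WT differences (0.28 ± 0.14, 0.39 ± 0.16 and 0.84 ± 0.18) did not pass the call rule. Control WT roots were at the bottom of the scale for *P4* and *PR-P2*. The differences between those responses were -3.27 ± 0.19, -1.30 ± 0.22 and -1.40 ± 0.26. They are descriptions with no p given, because the control root arrays bear on the choice of genes.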

How the results depend on the processing

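For 1760 single-gene values recomputed under the alternatives, a reversal was counted only where either fit called the value. Of these, 1680 kept their side of the call rule, uncalled ones whatever their sign, 60 lost the call, 17 gained it and 3 reversed. The 3 were *CHI3* and *CHI9* in control leaves (-1.43 and -1.06, other arrays left out giving up to 0.84 and 1.28) and the difference between leaf responses of *CHI3* (1.19, down to -1.08 with others left out), all without replicate 1 of control WT leaves. The number of genes called between *res* and WT in salt-stressed leaves was 2 with no moderation and 2 with normalisation within the organ. The number called for salt in WT leaves was 3 with only the groups compared, with no moderation, and with trend and robust moderation. For salt in *res* leaves it was 2 with all 24 arrays in 1 fit, with only the groups compared, with the dimmest probe sets left out and with 1 probe set per gene, *CHI3* being the one gained. For the difference between leaf responses it was 4 with all 24 arrays. The causes were not tested. With single arrays left out, the counts ranged from 6 to 6 in control roots, 2 to 4 in salt-stressed roots, 1 to 2 for salt in *res* roots, 2 to 4 in control leaves, 2 to 4 in salt-stressed leaves, 3 to 5 for salt in WT leaves, 1 to 2 for salt in *res* leaves and 2 to 4 for the difference between leaf responses. The runs that left an array out of a fit whose contrast does not contain it were added after seeing the data.

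Same-numbered arrays did not pair: the deviations of 36 pairs of same-numbered arrays correlated between -0.10 and 0.10, none above 0.1. With the replicate number as a block 3 genes were called in salt-stressed roots, 3 in salt-stressed leaves, where *CHI9* had an adjusted p of 0.052, 7 for the difference between root responses, where *PR1b1* was lost, and 2 for that in leaves. No other call changed with the block. Normalisation within the organ moved 9 of 64 group means by over 1 SD, by at most 0.24. Each gene had 1 probe set, so no other probe set could be compared, and 3 arrays a group are too few to look for outlying arrays by a range test.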
